A study of Homo sapiens with 4 samples.

Results

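Transcript levels of 33 genes of glucose breakdown were compared between embryonal carcinoma cells kept with barasertib and cells kept with the solvent. The 33 genes cover glucose uptake, glycolysis, the handling of lactate and pyruvate, and the pentose phosphate pathway. They were listed by name, with earlier results of these data known, so the list is not independent of the data. All 33 were found among the 27685 gene IDs of the files and passed the filter, a mean of 1 TPM or more. The study used NCC-IT-A3, a line derived from embryonal carcinoma, a germ cell tumour whose cells resemble those of the early embryo. The cells of 2 libraries received 100 nM barasertib, which blocks the mitotic kinase Aurora B, for 4 days. The cells of the other 2 libraries received DMSO, the solvent. Both groups grew in RPMI medium with serum. The labels name no genetic change. They do not say whether the libraries of 1 group were grown apart, so the spread between them may be technical. The variance behind each p-value pools both groups and also draws on other genes of like level. The gene itself gives 2 degrees of freedom and the other genes 4.09.

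Values are TPM, a length-scaled abundance that gives a gene's share of all transcripts in a library and not its amount per cell. RNA came from whole cultures, so fewer cells of a kind and less RNA per cell cannot be told apart. The number of aligned bases, taken from the ratio of coverage to FPKM, came to 4.59 and 4.52 Gb with barasertib, against 4.22 and 4.43 Gb with DMSO. All 9 markers of embryonal carcinoma were present at 1 TPM or more. Their summed level was 6500.0 and 6127 TPM with barasertib, against 5541 and 5436 TPM with DMSO, and most of it was POU5F1, at 3999 and 3949 TPM with barasertib, against 3708 and 3524 TPM with DMSO. The 9 did not all move together. POU5F1, NANOG, LIN28A, DPPA4 and DNMT3B were higher (log2 changes 0.14, 0.62, 0.23, 1.12 and 0.89, each with adjusted p under 0.05 by limma). SOX2 was lower (-0.21, adjusted p = 0.0143 by limma), and SALL4, TNFRSF8 and PODXL did not pass. DPPA4 differed between the DMSO replicates, at 277 and 293 TPM with barasertib, against 90.4 and 188 TPM with DMSO. PODXL differed between the barasertib replicates, at 506 and 167 TPM with barasertib, against 320.1 and 326 TPM with DMSO. Of the other marker lists, 0 of 6 for yolk sac and endoderm, 1 of 5 for trophoblast (TFAP2C), 2 of 6 for stroma (COL3A1 and PDGFRA), 1 of 5 for muscle (MYH3), 1 of 4 for neurons (MAP2) and 0 of 3 for blood averaged 1 TPM or more. The summed neuronal markers were 6.06 and 6.33 TPM with barasertib, against 3.37 and 4.39 TPM with DMSO, and the summed stromal markers 13.6 and 13.7 TPM with barasertib, against 8.70 and 9.83 TPM with DMSO. The yolk sac sum was 1.34 and 0.803 TPM with barasertib, against 0.307 and 0.545 TPM with DMSO, and the muscle sum 2.74 and 2.69 TPM with barasertib, against 2.40 and 2.07 TPM with DMSO. The blood sum was 0.694 and 0.557 TPM with barasertib, against 0 in both libraries with DMSO. The trophoblast sum was 59.6 and 62.5 TPM with barasertib, against 53.7 and 51.9 TPM with DMSO, and APOA2, TTR, CGB5, KRT7, ACTC1, MYOG and PTPRC were at 0 in every library. The part of these markers in the changes below was not tested.

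Glycolysis turns glucose into pyruvate. Hexokinase traps the sugar as glucose-6-phosphate, phosphofructokinase commits it to breakdown, and the later steps from triosephosphate isomerase to pyruvate kinase yield ATP. Pyruvate is either reduced to lactate and exported, as many tumour and pluripotent cells do even with oxygen present, or oxidised by the pyruvate dehydrogenase complex in mitochondria. The pentose phosphate pathway takes glucose-6-phosphate aside to make NADPH and ribose, and its later enzymes lead the carbon back to glycolysis.

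Of the 33 genes, 18 were higher and 2 were lower with barasertib, and 13 did not pass the test (limma on log2(TPM + 1), Benjamini-Hochberg adjusted p under 0.05 over all 13938 tested genes). Among all tested genes, 22.0% were called higher, 7.44% lower and 29.5% in either direction. Of the 1717 tested genes that averaged 100 TPM or more, 35.5% were called higher and 19.5% lower. Of the 22 of the 33 genes at that level, 13 were higher and 2 lower. The median log2 change was 0.27 over the 33 genes and 0.11 over all tested genes, which puts the 33 genes 0.16 above the rest. Fold changes of the 18 higher genes ran from 1.12-fold for ENO1 to 1.85-fold for HK1, and 7 reached 1.5-fold.

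Because TPM is relative, each gene was also tested after median-of-ratios scaling and after quantile normalisation, each of which moves the median of all tested genes by -0.12. Under all 3 scalings 11 of the 33 genes were higher, against 10.0% of all tested genes, and 2 were lower, against 7.05%. The 11 were HK1, PGM1, PFKFB3, ALDOC, TPI1, PGK1, PGAM1, ENO2, PKM, LDHA and PDHB, and the 2 were PGD and TKT. GPI, PFKP, PFKFB4, ALDOA, ENO1, SLC16A3 and PDK1 passed in TPM and missed in at least 1 of the other scalings. Of the 1717 tested genes at 100 TPM or more, 260 were higher and 280 lower under all 3 scalings. Of the 22 of the 33 genes at that level, 9 were higher and 2 lower. Both barasertib libraries lay above both DMSO libraries for 26 of the 33 genes and below them for 5, where 49.1% and 19.7% of all tested genes did so. At 100 TPM or more they lay above for 18 of the 22 genes and below for 4, against 933 and 475 of the 1717. PFKM and PDK3 were the 2 genes whose groups overlapped.

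**Figure D1:**
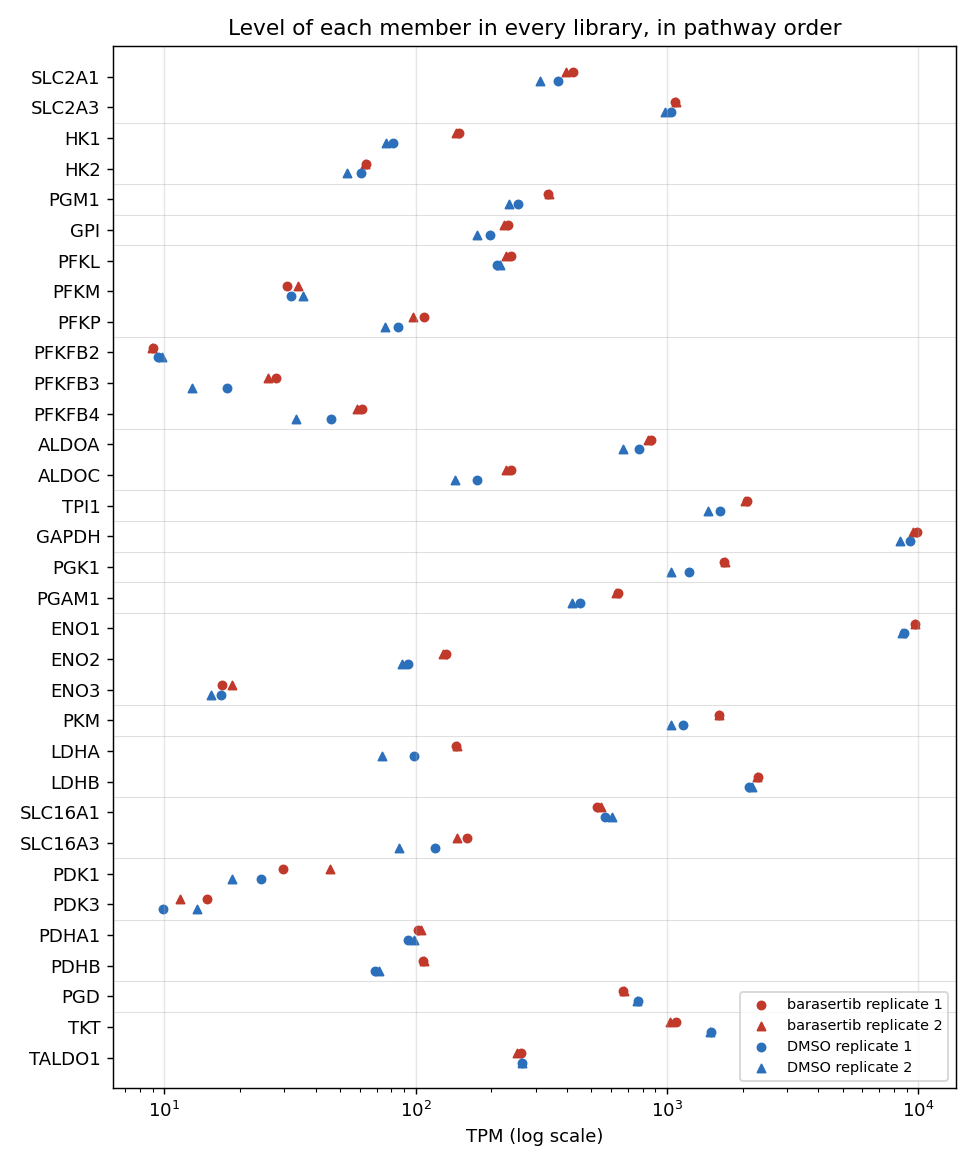
Level of each of the 33 genes in every library on a log10 TPM axis, in pathway order, with the 2 barasertib libraries and the 2 DMSO libraries as separate points. Mean levels run from 9.29 TPM for PFKFB2 to 9298 TPM for GAPDH, and most barasertib points lie to the right of the DMSO points.

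The 33 genes together made up 3.51% and 3.44% of all TPM with barasertib, against 3.16% and 2.99% with DMSO. In TPM both barasertib libraries were above both DMSO libraries, with a summed level of 35084 and 34433 TPM with barasertib, against 31588 and 29866 TPM with DMSO. GAPDH and ENO1 stood among the 10 most abundant gene IDs in every library. Mean levels over the 4 libraries ran from 9.29 TPM for PFKFB2 to 9298 TPM for GAPDH, with a median of 208 TPM. The log2 ratio of the summed levels was 0.18 in TPM and 0.04 after median-of-ratios scaling. After that scaling the groups overlapped, with DMSO replicate 1 above barasertib replicate 2. GAPDH and ENO1, the largest parts of the sum, then had log2 changes of -0.01 and 0.02. With 2 libraries against 2, an exact permutation test of a single sum or share cannot go below p = 1 in 3, so sums and shares are given as descriptions.

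**Figure D2:**
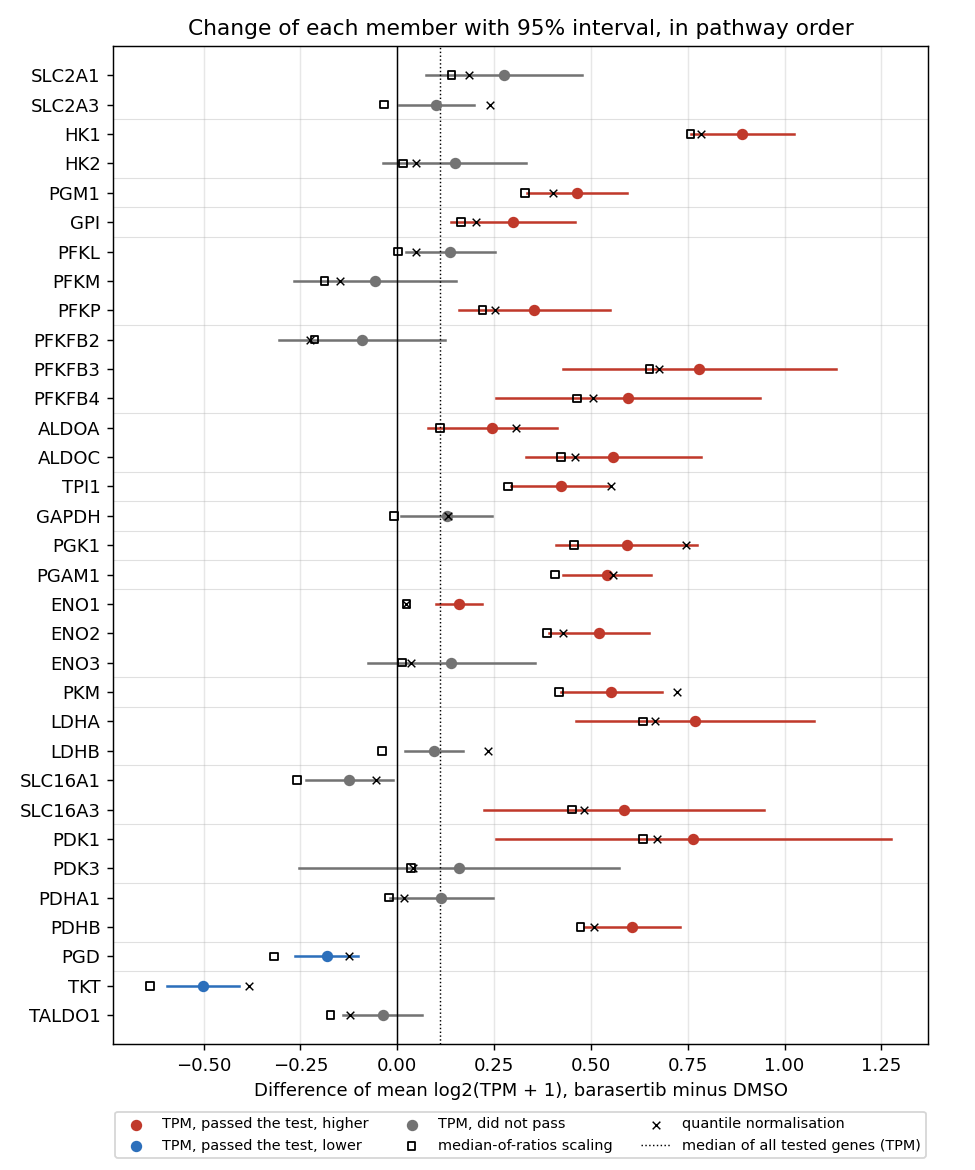
Difference of mean log2(TPM + 1), barasertib minus DMSO, for each gene with its 95% confidence interval (limma), red where higher and blue where lower with barasertib past the test, grey where not. Open squares and crosses give the change under median-of-ratios scaling and quantile normalisation, and the dotted line marks the median of all tested genes at 0.11. The largest rise is HK1 at 0.89 and the largest fall is TKT at -0.50.

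Glucose enters through the facilitative transporters SLC2A1 (GLUT1) and SLC2A3 (GLUT3), and neither passed the test. SLC2A3, the high-affinity transporter of neurons and early embryos, had 1072 and 1092 TPM with barasertib, against 1038 and 981 TPM with DMSO (log2 change 0.10, 95% interval 0.00 to 0.20, adjusted p = 0.106 by limma). SLC2A1, the transporter found in most tissues, had 424 and 397 TPM with barasertib, against 369 and 312 TPM with DMSO (log2 change 0.27, adjusted p = 0.0521 by limma). In both genes the barasertib libraries lay above the DMSO libraries. SLC2A3 was called higher after quantile normalisation (adjusted p = 0.00901, limma), while its log2 change was -0.03 after median-of-ratios scaling. SLC2A14, a near-identical copy of SLC2A3, can share its reads.

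At the hexokinase step HK1 was higher and HK2 did not pass, and the difference between their changes was not tested. HK1, the housekeeping hexokinase bound to mitochondria (gene ID 3098, chromosome 10 from 71029756 to 71161637, plus strand in hg19), had 149 and 145 TPM with barasertib, against 81.4 and 76.5 TPM with DMSO. HK1 was 1.85-fold higher, the largest change of the 33 genes, with means of 147 ± 3.12 TPM with barasertib and 78.9 ± 3.42 TPM with DMSO (SD, n = 2 each) and a log2 change of 0.89 (95% interval 0.76 to 1.02, adjusted p = 0.000441 by limma). The groups were far apart and the replicates close together. HK2, the inducible hexokinase common in tumours, had 63.3 and 62.9 TPM with barasertib, against 60.8 and 53.2 TPM with DMSO, and did not pass (adjusted p = 0.187, limma). By TPM, HK1 made up 70.2% and 69.7% with barasertib, against 57.2% and 59.0% with DMSO, of the summed hexokinases, and its groups did not overlap.

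The level of HK1 relative to HK2 depends on the unit. In the deposited tables the mean coverage over HK1 was 33.3 and 31.6 with barasertib, against 16.9 and 16.6 with DMSO, while over HK2 it was 126 and 122 with barasertib, against 113 and 103 with DMSO. The ratio of coverage to FPKM for HK1 was 11.2% of the library's highest ratio, against 100.0% for HK2, so by coverage HK1 was the lower of the 2 isozymes and by TPM the higher. By coverage HK1 made up 20.9% and 20.5% with barasertib, against 13.0% and 13.9% with DMSO, of the summed hexokinases, so its share was larger with barasertib in both units. Per aligned Gb the coverage of HK1 was 1.84 times as high with barasertib as with DMSO. The same ratio was 6.49% for PGM1, 6.30% for PFKFB3 and 22.6% for SLC16A3, and 36.7% or more for the remaining genes, and the cause was not tested.

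PGM1, phosphoglucomutase, which links glucose-6-phosphate to glycogen and nucleotide sugars, had 338 and 339 TPM with barasertib, against 256 and 234 TPM with DMSO. It was 1.38-fold higher with means of 338 ± 0.773 TPM with barasertib and 245 ± 15.4 TPM with DMSO (SD, n = 2 each), and its adjusted p was 0.00262 (limma). GPI, the isomerase that makes fructose-6-phosphate, had 233 and 225 TPM with barasertib, against 197 and 175 TPM with DMSO. The groups of both genes were separate, but the call of GPI (adjusted p = 0.0203, limma) was not kept after median-of-ratios scaling (adjusted p = 0.13) or quantile normalisation (adjusted p = 0.0899).

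Phosphofructokinase, the committed step, is a tetramer of liver (PFKL), muscle (PFKM) and platelet (PFKP) type subunits, and PFKL was the most abundant. PFKL had 240.5 and 228 TPM with barasertib, against 209.9 and 216 TPM with DMSO (log2 change 0.14, 95% interval 0.02 to 0.25, adjusted p = 0.0743 by limma). PFKP had 107 and 97.8 TPM with barasertib, against 85.2 and 75.2 TPM with DMSO, and passed in TPM (log2 change 0.35, adjusted p = 0.0223 by limma). PFKM had 30.8 and 34.2 TPM with barasertib, against 31.9 and 35.7 TPM with DMSO, with overlapping groups. The share of PFKP in the summed subunits was 28.4% and 27.1% with barasertib, against 26.0% and 23.0% with DMSO. PFKM overlaps SENP1 on the other strand, which was at 12.4 to 14.5 TPM.

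PFKFB enzymes make and remove fructose-2,6-bisphosphate, the small molecule that switches phosphofructokinase on. PFKFB3, the form in which kinase activity most outweighs phosphatase activity, had 27.7 and 25.9 TPM with barasertib, against 17.8 and 12.9 TPM with DMSO, and was 1.72-fold higher (log2 change 0.78, 95% interval 0.43 to 1.13, adjusted p = 0.0119 by limma). PFKFB4, a form known from testis and tumours, had 61.3 and 58.3 TPM with barasertib, against 45.9 and 33.5 TPM with DMSO (log2 change 0.60, adjusted p = 0.0248 by limma). PFKFB2, the heart form, had 9.04 and 8.89 TPM with barasertib, against 9.41 and 9.83 TPM with DMSO, and did not pass (adjusted p = 0.465, limma). In PFKFB3 and PFKFB4 the DMSO libraries lay far apart, with replicate 1 above replicate 2 by 0.43 and 0.44 on the log2 scale, and leaving out 1 library brought their highest adjusted p to 0.0792 and 0.125 (limma). By TPM, PFKFB2 gave 9.22% and 9.54% with barasertib, against 12.9% and 17.5% with DMSO, of the summed PFKFB transcripts. By coverage it gave 8.50% and 8.91% with barasertib, against 11.7% and 15.5% with DMSO. The share of PFKFB3 by coverage was 2.80% and 2.72% with barasertib, against 2.35% and 2.24% with DMSO. So PFKFB3 was below PFKFB2 by coverage and above it by TPM. The mean coverage over PFKFB3 was low, at 3.47 and 3.15 with barasertib, against 2.09 and 1.59 with DMSO.

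Several of these genes are known targets of the hypoxia-inducible factors, which bind the core ACGTG or GCGTG, and of MYC, which binds CACGTG. The windows from 250 bases before to 50 bases after the annotated gene start in RefSeq (GRCh38.p14) were therefore read for these letters on both strands. A window was present for 30 of the 33 genes, and 4 are printed for genes that passed the test, 2 higher and 2 lower. Capitals mark ACGTG or GCGTG on either strand, so that CACGT and CACGC are the same motifs read on the other strand. CACGTG holds ACGTG once on each strand and is counted in both. Of the 18 higher genes 38.9% held ACGTG, against 26.9% of the 10907 tested genes with a window and 21.6% of all 27305 windows. GCGTG was in 44.4% of the higher genes, 51.2% of the tested genes and 36.3% of all windows. Either motif was in 61.1%, 63.6% and 48.4%, and CACGTG in 16.7%, 10.2% and 7.43%. Of the 10 genes with a window that did not pass the test, 30% held ACGTG, 70% GCGTG, 80% either motif and 10% CACGTG. A match is a description of the letters and not a binding site, and the start in use in these cells was not determined. The window of PFKFB3 (chr10:6144671-6144970, plus strand) held 1 GCGTG, and that of HK1 and that of PDK1 held neither motif.
PFKFB3: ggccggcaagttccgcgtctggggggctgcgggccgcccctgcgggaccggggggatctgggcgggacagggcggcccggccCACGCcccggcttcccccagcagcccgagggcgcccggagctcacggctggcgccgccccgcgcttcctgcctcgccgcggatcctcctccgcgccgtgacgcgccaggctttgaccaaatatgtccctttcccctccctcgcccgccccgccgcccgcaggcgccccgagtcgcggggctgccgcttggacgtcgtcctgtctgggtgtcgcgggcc

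Aldolase splits the hexose into trioses. ALDOA, the main form, had 865 and 838 TPM with barasertib, against 771 and 669.6 TPM with DMSO (log2 change 0.25, adjusted p = 0.0408 by limma). ALDOC, the form known from brain, had 240.0 and 229 TPM with barasertib, against 175 and 144 TPM with DMSO, and its log2 change was 0.56 (95% interval 0.33 to 0.78, adjusted p = 0.00844 by limma). The groups did not overlap in either gene, and ALDOC made up 21.7% and 21.5% with barasertib, against 18.5% and 17.7% with DMSO, of summed aldolase by TPM. By coverage its share was 43.0% and 42.8% with barasertib, against 38.3% and 37.0% with DMSO. The call of ALDOA was not kept after median-of-ratios scaling (adjusted p = 0.294).

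In the second stage of glycolysis, from triosephosphate isomerase to pyruvate kinase, 6 of 8 genes were higher, against 22.0% of all tested genes. The other 2, GAPDH and ENO3, did not pass. Under all 3 scalings 5 of the 8 were higher, against 10.0% of all tested genes. Of the 1717 tested genes at 100 TPM or more, 35.5% were higher in TPM and 260 under all 3 scalings. TPI1, which interconverts the trioses, had 2089 and 2041 TPM with barasertib, against 1624 and 1463 TPM with DMSO. PGK1, the first ATP-yielding enzyme (gene ID 5230, chromosome X from 77359666 to 77382324, plus strand in hg19), had 1686 and 1701 TPM with barasertib, against 1220.2 and 1034 TPM with DMSO. PGAM1, the phosphoglycerate mutase of most tissues, had 641 and 625 TPM with barasertib, against 450.0 and 419 TPM with DMSO. All 3 groups of barasertib values lay clear of the DMSO values. The log2 changes were 0.42 for TPI1 (adjusted p = 0.00342), 0.59 for PGK1 (adjusted p = 0.00353) and 0.54 for PGAM1 (adjusted p = 0.00115, limma). SPSB2 overlaps TPI1 on the other strand at 112 to 135 TPM, and PGAM4, a near-identical copy of PGAM1, can share its reads. The processed copies TPI1P2, TPI1P3 and PGAM1P5 stayed at 1.71 TPM or below in every library.

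GAPDH, the dehydrogenase often used as a loading control, had 9912 and 9494 TPM with barasertib, against 9297 and 8488 TPM with DMSO. Its barasertib values were both above the DMSO values, by 1.09-fold, and it did not pass (95% interval of the log2 change 0.01 to 0.24, adjusted p = 0.0938 by limma). The log2 change of GAPDH was -0.01 after median-of-ratios scaling and 0.13 after quantile normalisation. In TPM the log2 change of GAPDH was 0.02 above the median of all tested genes, against 0.31 for TPI1, 0.48 for PGK1 and 0.43 for PGAM1, its neighbours in the pathway.

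Enolase makes phosphoenolpyruvate. ENO1, the form of most tissues, had 9733 and 9689 TPM with barasertib, against 8747 and 8645 TPM with DMSO, and its small rise of 1.12-fold passed in TPM (adjusted p = 0.00612, limma) but not after median-of-ratios scaling (log2 change 0.02, adjusted p = 0.484). ENO2, the neuronal form, had 133 and 129 TPM with barasertib, against 93.3 and 88.4 TPM with DMSO, and was higher under all 3 scalings (log2 change 0.52, adjusted p = 0.00181 by limma). ENO3, the muscle form, had 16.9 and 18.6 TPM with barasertib, against 16.7 and 15.3 TPM with DMSO (adjusted p = 0.277, limma). ENO1 held over 98% of summed enolase in every library, while ENO2 gave 1.34% and 1.31% with barasertib, against 1.05% and 1.01% with DMSO.

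PKM, pyruvate kinase, forms ATP and pyruvate in the last step and had 1606 and 1615 TPM with barasertib, against 1158 and 1040.2 TPM with DMSO. Its means were 1610.3 ± 5.97 TPM with barasertib and 1099 ± 83.0 TPM with DMSO (SD, n = 2 each), a 1.47-fold difference (log2 change 0.55, 95% interval 0.42 to 0.68, adjusted p = 0.00159 by limma). The M1 and M2 splice forms of PKM share one gene row and cannot be told apart here. Over the 16 enzymes from hexokinase to pyruvate kinase, 11 were higher and 0 lower in TPM (limma), against 22.0% and 7.44% of all tested genes. Under all 3 scalings 7 of the 16 were higher, against 10.0% of all tested genes. Tested genes at 100 TPM or more were higher in 35.5% and lower in 19.5% in TPM. Under all 3 scalings 260 of these 1717 genes were higher. The median log2 change of the 16 enzymes in TPM was 0.33. Their summed level was 27746 and 27173 TPM with barasertib, against 24218 and 22638 TPM with DMSO. At an unadjusted p under 0.05 (limma), 13 of the 16 were higher and 0 lower, where 32.2% of all tested genes were higher and 10.9% lower.

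Lactate dehydrogenase converts pyruvate to lactate and back, with LDHA favouring lactate and LDHB, known from heart, favouring pyruvate. LDHB was by far the more abundant, with 2309.8 and 2277 TPM with barasertib, against 2120.4 and 2174 TPM with DMSO (log2 change 0.10, 95% interval 0.02 to 0.17, adjusted p = 0.0618 by limma). LDHA (gene ID 3939, chromosome 11 from 18415936 to 18429765, plus strand in hg19) had 145 and 146 TPM with barasertib, against 98.1 and 73.6 TPM with DMSO. LDHA was 1.70-fold higher, with means of 145 ± 1.15 TPM with barasertib and 85.8 ± 17.3 TPM with DMSO (SD, n = 2 each). Its log2 change was 0.77 (95% interval 0.46 to 1.08, adjusted p = 0.00812 by limma). The LDHA share of the summed pair was 5.89% and 6.04% with barasertib, against 4.42% and 3.27% with DMSO. The 2 DMSO libraries differed by 0.41 on the log2 scale in LDHA, and leaving out 1 library brought its adjusted p to at most 0.0597. LDHB was called higher after quantile normalisation (adjusted p = 0.00842, limma) and had a log2 change of -0.04 after median-of-ratios scaling. The LDHA window (chr11:18394313-18394612, plus strand) held ACGTG 5 times, 4 of them in 2 copies of the palindrome CACGTG, and GCGTG once.
LDHA: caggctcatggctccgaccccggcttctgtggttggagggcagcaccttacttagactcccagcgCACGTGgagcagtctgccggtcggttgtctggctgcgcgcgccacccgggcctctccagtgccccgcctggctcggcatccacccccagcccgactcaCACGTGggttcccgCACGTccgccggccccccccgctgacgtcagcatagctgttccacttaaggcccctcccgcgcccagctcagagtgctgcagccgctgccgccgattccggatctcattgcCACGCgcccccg

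Lactate leaves or enters the cell through monocarboxylate transporters. SLC16A1 (MCT1) was the more abundant, with 525 and 548 TPM with barasertib, against 567 and 602 TPM with DMSO, and its barasertib values lay below both DMSO values without passing in TPM (log2 change -0.12, 95% interval -0.24 to -0.01, adjusted p = 0.0922 by limma). SLC16A3 (MCT4), the transporter of strongly glycolytic cells, had 159 and 146 TPM with barasertib, against 119.9 and 85.8 TPM with DMSO (log2 change 0.58, 95% interval 0.22 to 0.95, adjusted p = 0.0317 by limma). The transporters thus stood on opposite sides of 0, and SLC16A3 gave 23.3% and 21.1% with barasertib, against 17.5% and 12.5% with DMSO, of their sum by TPM. By coverage its share was 7.56% and 6.69% with barasertib, against 5.37% and 3.70% with DMSO. After median-of-ratios scaling SLC16A1 was called lower (adjusted p = 0.0105) and SLC16A3 did not pass (adjusted p = 0.08, limma). The highest adjusted p of SLC16A3 with 1 library left out was 0.154.

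**Figure D3:**
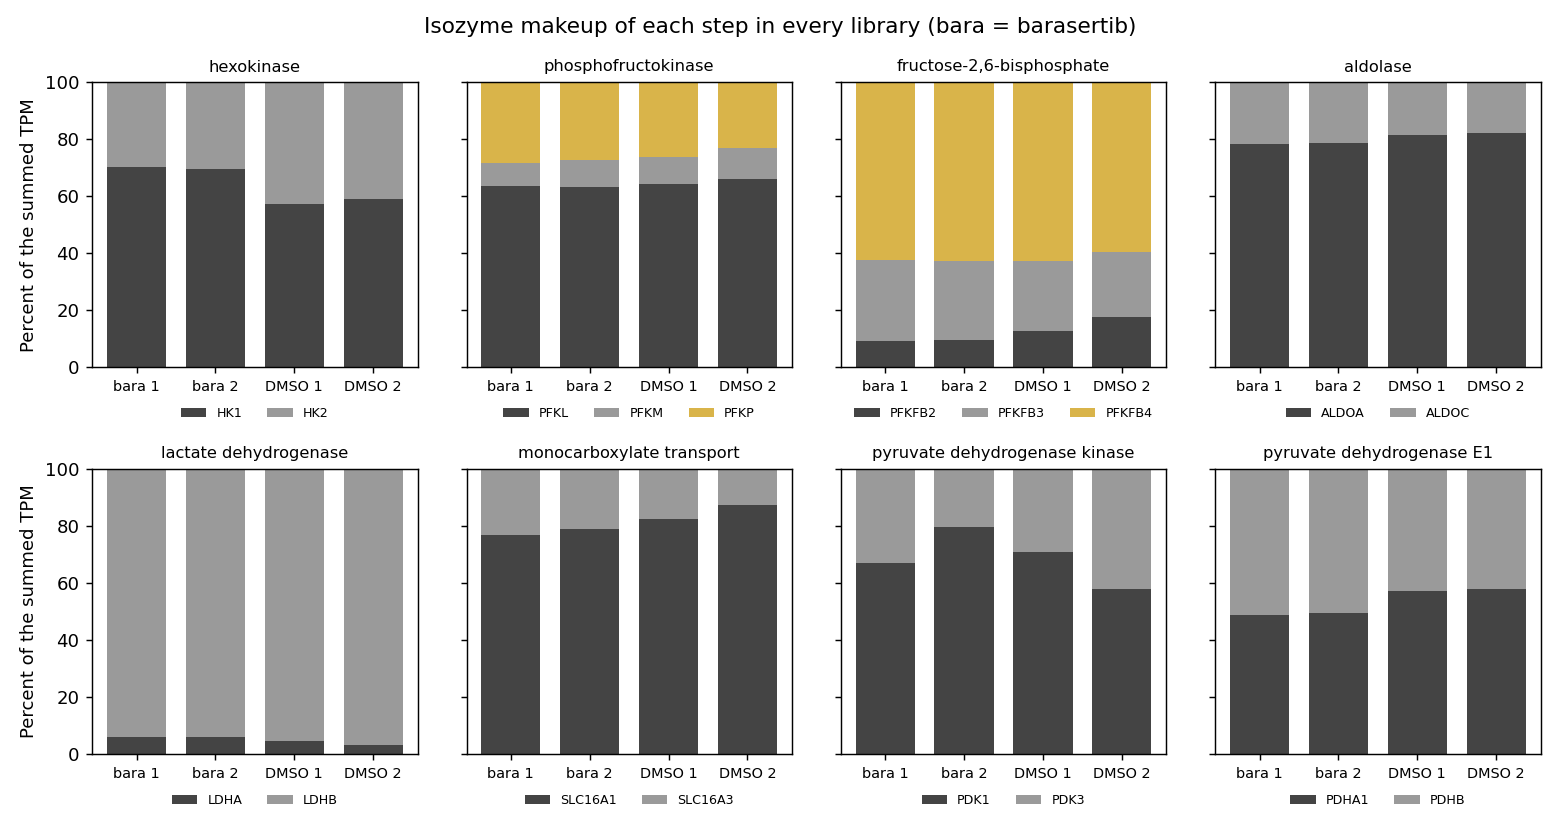
Percent of the summed TPM that each isozyme or subunit takes at 8 steps, 1 bar per library, barasertib libraries left of DMSO libraries. HK1, ALDOC, LDHA, SLC16A3 and PDHB take a larger share in both barasertib libraries than in either DMSO library.

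Pyruvate dehydrogenase carries pyruvate into the citrate cycle, and its E1 enzyme is built of PDHA1 (alpha) and PDHB (beta) subunits. PDHB had 107 and 108 TPM with barasertib, against 69.1 and 71.3 TPM with DMSO, with means of 107 ± 0.747 TPM with barasertib and 70.2 ± 1.58 TPM with DMSO (SD, n = 2 each), and was 1.52-fold higher (log2 change 0.61, adjusted p = 0.00108 by limma). PDHA1 had 102 and 105 TPM with barasertib, against 92.9 and 98.5 TPM with DMSO (log2 change 0.11, 95% interval -0.02 to 0.25, adjusted p = 0.167 by limma). The 2 subunits of the same enzyme were near each other in level, and PDHB gave 51.2% and 50.7% with barasertib, against 42.7% and 42.0% with DMSO, of their sum. PDHA1 overlaps MAP3K15 on the other strand, at 4.51 to 5.48 TPM.

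The kinases PDK1 and PDK3 switch pyruvate dehydrogenase off. PDK1 had 29.7 and 45.4 TPM with barasertib, against 24.2 and 18.6 TPM with DMSO, a 1.70-fold difference (log2 change 0.76, 95% interval 0.25 to 1.28, adjusted p = 0.0395 by limma). The barasertib replicates of PDK1 were apart by 0.59 on the log2 scale, and its call was kept neither after median-of-ratios scaling (adjusted p = 0.0769) nor after quantile normalisation (adjusted p = 0.0691). PDK3 had 14.7 and 11.6 TPM with barasertib, against 9.92 and 13.5 TPM with DMSO, with overlapping groups (adjusted p = 0.508, limma).

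In the pentose phosphate pathway 2 of 3 genes fell and 0 rose, where 7.44% of all tested genes fell and 22.0% rose. All 3 genes averaged 100 TPM or more, a level at which 19.5% of tested genes fell and 35.5% rose. At an unadjusted p under 0.05 (limma) the counts were also 2 and 0, against 10.9% and 32.2% of all tested genes. The barasertib values of all 3 genes lay below the DMSO values, as they did for 19.7% of all tested genes. Among the 1717 tested genes at 100 TPM or more, 475 did so. TKT, transketolase (gene ID 7086, chromosome 3 from 53258723 to 53290130, minus strand in hg19), moves carbon units between sugars in the non-oxidative branch and had 1083 and 1026 TPM with barasertib, against 1504 and 1484 TPM with DMSO. TKT was lower, with means of 1055 ± 39.7 TPM with barasertib and 1494 ± 14.5 TPM with DMSO (SD, n = 2 each). Its log2 change was -0.50 (95% interval -0.60 to -0.41, adjusted p = 0.000801 by limma). PGD, which makes NADPH and ribulose-5-phosphate in the oxidative branch, had 671 and 672 TPM with barasertib, against 765 and 759.6 TPM with DMSO (log2 change -0.18, 95% interval -0.26 to -0.10, adjusted p = 0.0113 by limma). TALDO1, transaldolase, had 262 and 253 TPM with barasertib, against 264 and 265 TPM with DMSO (adjusted p = 0.528, limma). TKT was called lower with each library left out, whereas the highest adjusted p of PGD was 0.0515. TALDO1 was called lower after median-of-ratios scaling (adjusted p = 0.0319). TKT made up 80.5% and 80.2% with barasertib, against 85.1% and 84.9% with DMSO, of the TKT and TALDO1 sum, and the summed level of the 3 genes was 2015 and 1952 TPM with barasertib, against 2533 and 2508 TPM with DMSO. The window of TKT (chr3:53255973-53256272, minus strand) held neither ACGTG nor GCGTG, and that of PGD (chr1:10398814-10399113, plus strand) held ACGTG once and GCGTG 2 times.
TKT: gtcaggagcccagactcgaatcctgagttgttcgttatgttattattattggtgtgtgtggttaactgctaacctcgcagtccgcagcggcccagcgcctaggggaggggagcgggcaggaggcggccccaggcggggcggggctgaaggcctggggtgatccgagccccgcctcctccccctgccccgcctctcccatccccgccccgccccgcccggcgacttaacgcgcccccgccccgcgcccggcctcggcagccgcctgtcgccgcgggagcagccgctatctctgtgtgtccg
PGD: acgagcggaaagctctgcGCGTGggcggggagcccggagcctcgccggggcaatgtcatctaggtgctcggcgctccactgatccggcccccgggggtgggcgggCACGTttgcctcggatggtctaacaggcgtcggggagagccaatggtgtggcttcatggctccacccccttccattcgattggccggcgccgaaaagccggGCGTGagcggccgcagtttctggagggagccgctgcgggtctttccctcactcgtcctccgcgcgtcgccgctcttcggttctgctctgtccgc

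The replicates were not equally close. Barasertib replicate 1 was above barasertib replicate 2 in 21 of the 33 genes, with a median gap of 0.03 on the log2 scale. DMSO replicate 1 was above DMSO replicate 2 in 24 of the 33, with a median gap of 0.12, where the median over all tested genes was -0.01 in both groups. The widest gaps with DMSO replicate 1 on top were in SLC16A3 (0.48), PFKFB4 (0.44), PFKFB3 (0.43), LDHA (0.41) and PDK1 (0.36), while in PDK3 DMSO replicate 1 was the lower one by a like amount (-0.41). The median log2 change of the 33 genes was 0.23 without barasertib replicate 1 and 0.32 without barasertib replicate 2. It was 0.38 without DMSO replicate 1 and 0.21 without DMSO replicate 2. Over all tested genes the median was 0.11 in each of these fits. Fewer libraries also leave fewer degrees of freedom. The call of 9 of the 18 higher genes, HK1, PGM1, TPI1, PGK1, PGAM1, ENO1, ENO2, PKM and PDHB, was kept whichever library was left out, and all but ENO1 also passed under all 3 scalings. GPI, PFKP, PFKFB3, PFKFB4, ALDOA, ALDOC, LDHA, SLC16A3 and PDK1 lost the call in at least 1 of the 4 fits, with a highest adjusted p between 0.0597 for LDHA and 0.169 for ALDOA (limma).

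**Figure D4:**
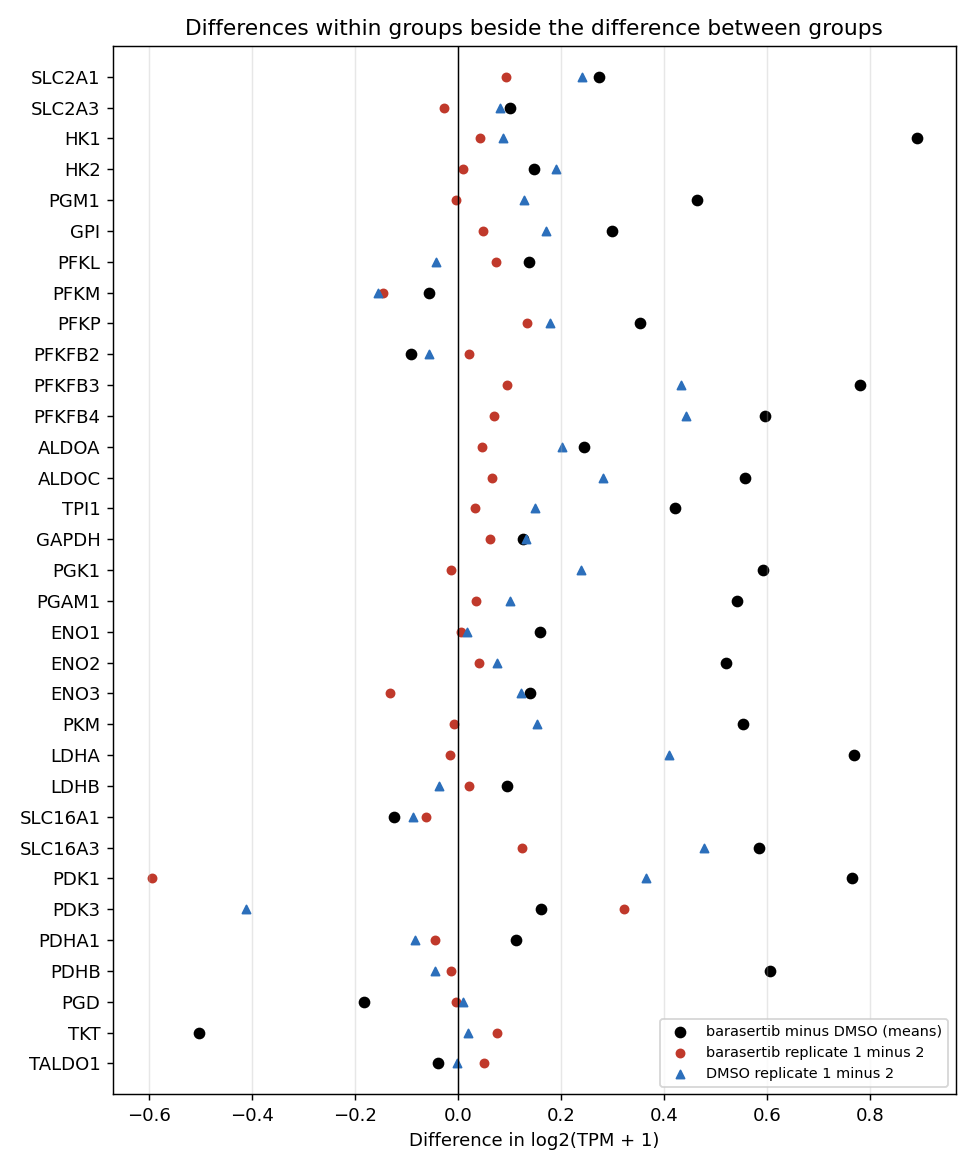
Replicate 1 minus replicate 2 on the log2(TPM + 1) scale for each of the 33 genes, within barasertib (circles) and within DMSO (triangles), with the difference of group means, barasertib minus DMSO, in black. DMSO replicate 1 is the higher in 24 of 33 genes, with the widest gap 0.48 in SLC16A3, and the widest barasertib gap is -0.59 in PDK1.

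Genes that neighbour the 33 in metabolism were described by lists, whose counts stand against 22.0% higher and 7.44% lower among all tested genes in TPM, 10.0% and 7.05% under all 3 scalings, and 32.2% and 10.9% at an unadjusted p under 0.05. Of the citrate cycle, 18 genes were tested and 11 were higher and 0 lower (limma; 15 and 0 at an unadjusted p under 0.05), with 4 higher under all 3 scalings and a median log2 change of 0.24. SUCLG2, a subunit of succinyl-CoA ligase, had 18.4 and 20.1 TPM with barasertib, against 14.2 and 11.7 TPM with DMSO. IDH3B, of the NAD-linked isocitrate dehydrogenase, had 101 and 90.9 TPM with barasertib, against 69.6 and 63.7 TPM with DMSO. The groups overlapped in neither gene. SUCLA2 had 67.3 and 71.3 TPM with barasertib, against 47.7 and 49.6 TPM with DMSO, and MDH1, the cytosolic malate dehydrogenase, 278 and 286 TPM with barasertib, against 227 and 222 TPM with DMSO. The count of higher citrate cycle genes was 6 without barasertib replicate 1, 5 without barasertib replicate 2, 6 without DMSO replicate 1 and 10 without DMSO replicate 2.

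Among 9 other pyruvate dehydrogenase genes 3 were higher and 0 lower in TPM (limma; 6 and 1 at an unadjusted p under 0.05), 1 under all 3 scalings. PDP1, the phosphatase that switches the complex back on, had 14.6 and 15.3 TPM with barasertib, against 8.70 and 8.99 TPM with DMSO (log2 change 0.69, adjusted p = 0.00305 by limma). PDPR and PDHX, a regulatory subunit of that phosphatase and a structural subunit of the complex, had log2 changes of 0.32 and 0.33. Among 10 other pentose phosphate genes 2 were higher and 1 lower in TPM, and 0 higher and 1 lower under all 3 scalings (limma; 3 and 1 in TPM at an unadjusted p under 0.05). PGLS, the lactonase of the second oxidative step, had 109.8 and 102 TPM with barasertib, against 157 and 154 TPM with DMSO (log2 change -0.55, adjusted p = 0.00168 by limma). SHPK, a sedoheptulose kinase, had a log2 change of 0.33.

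Of 5 other tested glycolysis enzymes 1 was higher and 1 lower, also under all 3 scalings. ADPGK, which phosphorylates glucose with ADP, had 60.2 and 60.2 TPM with barasertib, against 42.4 and 43.7 TPM with DMSO, and LDHD, the D-lactate dehydrogenase, had 21.0 and 20.5 TPM with barasertib, against 32.5 and 27.7 TPM with DMSO. A further 13 of the 18 enzymes on that list, tissue forms such as HKDC1, PGAM2 and LDHC, averaged under 1 TPM over all libraries. PGAM2 had 1.54 and 0.606 TPM with barasertib, against 0.127 and 0.117 TPM with DMSO, and was not tested. Of 9 other tested sugar and lactate transporters 2 were higher and 1 lower, also under all 3 scalings, against 22.0% and 7.44% of all tested genes in TPM. SLC2A6, a lysosomal member of the sugar transporter family, had 15.2 and 14.5 TPM with barasertib, against 6.49 and 5.59 TPM with DMSO, with a log2 change of 1.17 (adjusted p = 0.00122, limma), and SLC2A8, another intracellular member, had 30.2 and 29.4 TPM with barasertib, against 22.5 and 23.0 TPM with DMSO. SLC2A13, a myo-inositol transporter, had 6.21 and 7.51 TPM with barasertib, against 9.10 and 10.0 TPM with DMSO. Its adjusted p was 0.0406 (limma) and missed the threshold whichever library was left out, up to 0.144, and with no filter on low values.

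Of 15 tested genes of gluconeogenesis and glycogen 5 were higher and 2 lower, with 1 higher and 2 lower under all 3 scalings. The 2 lower genes are the mitochondrial enzymes that lead from pyruvate to phosphoenolpyruvate. PCK2, the mitochondrial phosphoenolpyruvate carboxykinase, had 101 and 98.1 TPM with barasertib, against 192 and 176 TPM with DMSO (log2 change -0.88, adjusted p = 0.000596 by limma). PC, pyruvate carboxylase, had 23.4 and 20.6 TPM with barasertib, against 35.9 and 35.6 TPM with DMSO (log2 change -0.68, adjusted p = 0.00287 by limma). PYGM and PGM2L1 were low, with 3.72 and 3.49 TPM and 6.88 and 7.53 TPM with barasertib, against 1.74 and 2.32 TPM and 4.86 and 4.53 TPM with DMSO. Of 15 tested genes of the amino sugar and serine branches, which leave glycolysis at fructose-6-phosphate and 3-phosphoglycerate, 3 were higher and 4 lower, with 1 higher and 4 lower under all 3 scalings. SHMT2, the mitochondrial serine hydroxymethyltransferase, had 337 and 332 TPM with barasertib, against 505 and 489 TPM with DMSO. PSAT1, of serine synthesis, had 439 and 477 TPM with barasertib, against 641 and 666 TPM with DMSO, and PGM3, of amino sugar synthesis, 37.7 and 39.7 TPM with barasertib, against 51.3 and 54.8 TPM with DMSO. GFPT2, which opens the amino sugar branch, had 198 and 191 TPM with barasertib, against 140.2 and 148 TPM with DMSO, and was higher.

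Of 20 tested regulators of glycolytic genes 3 were higher and 1 lower, against 22.0% and 7.44% of all tested genes, and 1 was higher and 1 lower under all 3 scalings. MYC, a transcription factor that drives many glycolytic genes, had 59.9 and 53.8 TPM with barasertib, against 41.0 and 41.2 TPM with DMSO (log2 change 0.46, adjusted p = 0.00676 by limma). VHL, which marks the hypoxia-inducible factors for destruction, had 58.1 and 59.0 TPM with barasertib, against 77.9 and 80.7 TPM with DMSO (log2 change -0.43, adjusted p = 0.00335 by limma). HIF1A, whose protein rather than its transcript is the main point of control, had 99.7 and 107 TPM with barasertib, against 81.1 and 91.0 TPM with DMSO, and its call was not kept under all 3 scalings. LIN28A, an RNA-binding protein of pluripotent cells, had 533 and 527 TPM with barasertib, against 441 and 461 TPM with DMSO. Of 23 tested hypoxia targets outside glycolysis 8 were higher and 2 lower, with 3 higher and 2 lower under all 3 scalings and a median log2 change of 0.23. P4HA2, a collagen prolyl hydroxylase, had 67.6 and 68.5 TPM with barasertib, against 181 and 179 TPM with DMSO, the largest change in these lists, while PLOD2, a collagen lysyl hydroxylase, had 55.5 and 56.0 TPM with barasertib, against 34.3 and 31.5 TPM with DMSO. FAM162A had 289 and 270.4 TPM with barasertib, against 178 and 145 TPM with DMSO, and LOX, lysyl oxidase, had a log2 change of 0.70. The summed level of the list was 2298 and 2266 TPM with barasertib, against 2242 and 2006 TPM with DMSO, with DMSO replicate 1 near the barasertib libraries. The count of higher hypoxia targets was 2 without barasertib replicate 1, 4 without barasertib replicate 2, 10 without DMSO replicate 1 and 4 without DMSO replicate 2. In that order it was 2, 1, 4 and 2 for gluconeogenesis and glycogen, 1, 1, 2 and 3 for the other pyruvate dehydrogenase genes, and 1, 2, 3 and 3 for the regulators. It was 0, 0, 1 and 0 for the other pentose phosphate genes, and 1, 2, 2 and 2 for the amino sugar and serine branches. Of the genes named from these lists, LDHD, SLC2A8, SLC2A13, SHPK, PDPR, PDHX, PGM2L1, PYGM, SUCLG2, HIF1A, LIN28A and LOX lost their call in at least 1 of the 4 fits with a library left out.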

How the data were processed

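Per the labels' protocols, column-purified RNA went into a stranded library kit that selects mRNA. Per the submitters' processing notes, HISAT2 and StringTie were used with hg19, with versions not given in the sources used here. The same holds for the use of strand and the read number. Per the file headers, the deposited values are coverage (mean depth, taken as signal), FPKM and TPM. The deposited TPM sum to 1000000 in every library, and rows that share a gene ID were added up. RefSeq (GRCh38.p14) gave symbols for 27559 of the 27685 IDs, and the promoter windows. Positions in hg19 are those of the files. Aligned bases were estimated as the highest ratio of coverage to FPKM.

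Genes averaging 1 TPM or more, 13938 in all, were fitted with limma 3.58.1 (R 4.3.3) to log2(TPM + 1) by group, with trended empirical Bayes moderation. P-values were two-sided and adjusted by Benjamini-Hochberg across these 13938 genes, with calls at 0.05. The procedure was tested on simulated data. These held no shift across a whole library, so they do not bear on the choice of scaling. Replicates differed by an SD of 0.25 (log2) in each group, and by 0.16 for barasertib and 0.13 for DMSO in genes averaging 100 TPM or more. The added 1 makes fold changes of low genes too small. Figures used matplotlib 3.10.9 under Python 3.11.15.

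The 33 genes and the 9 other lists were chosen with earlier results of these data known. All 33 genes are named with their value in every library. The rule asked for full values of the 12 called genes with the largest change, of their isozymes and of the most abundant gene of each step, and the remaining values were added. From each other list up to 4 called genes with the largest change are named. Some genes of these lists are not reported here. Alternatives were other filters, pseudocounts, FPKM, 2 further scalings, no trend, robust moderation, a replicate block and leaving out each library. Isozyme shares by coverage were added after the data were seen. Protein sequences were not used here.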

Additional observations from a re-analysis of the deposited data

How the results depend on the processing

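The count of the 33 genes called higher, 18 in TPM, was 11 with no filter on low values, 11 after median-of-ratios scaling, 11 without the mean-variance trend, and 9 to 20 when 1 library was left out. The count called lower, 2 in TPM, was 4 after median-of-ratios scaling, where SLC16A1 and TALDO1 joined PGD and TKT, 1 without the trend, and 1 to 2 with 1 library left out. Over all tested genes, 1529 were higher and 1891 lower after median-of-ratios scaling and 1649 and 1590 after quantile normalisation. Without the trend 674 were lower, and with 1 library left out 1365 to 2181 were higher and 601 to 699 lower. The median log2 change of the 33 genes was 0.14 after median-of-ratios scaling and 0.21 to 0.38 with 1 library left out. That of all tested genes was 0.094 with no filter, 0.10 with a mean of at least 5 TPM, 0.12 with a pseudocount of 0.1, 0.084 with a pseudocount of 5, 0.077 in FPKM, -0.013 after median-of-ratios scaling and -0.0077 after quantile normalisation, so its sign depends on the scaling. Among single genes that did not pass the test, the sign of the log2 change turned after median-of-ratios scaling for SLC2A3 (-0.034), GAPDH (-0.0082), LDHB (-0.040) and PDHA1 (-0.021). With 1 library left out it ran from -0.13 to 0.021 for PFKM, positive when barasertib replicate 1 or DMSO replicate 2 was missing, and from -0.046 to 0.37 for PDK3, negative when replicate 1 of either group was missing. The labels do not say whether libraries of the same number share a culture or day. Their deviations from the group means correlated with r = 0.02 over all tested genes, and 1 correlation from so few libraries cannot decide it. With a replicate block 20 of the 33 genes were higher and 2 lower, adding SLC2A1 and GAPDH. By coverage in place of TPM, HK1 was the lower of the 2 hexokinases and PFKFB3 was below PFKFB2. In no step did the sign of an isozyme's change in share turn. Depth limits PFKFB3, PFKFB2, PDK3 and HK1 most, the 4 genes with the lowest mean coverage of the 33. The causes of these shifts were not tested.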
